A study of Saccharomyces cerevisiae with 2 samples.

Results

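DNA double strand breaks were examined at 10 genes of iron metabolism in budding yeast, Saccharomyces cerevisiae. The genes were FET3, FTR1, FIT1, FIT2, FIT3, FET5, FTH1, SMF3, CCC2 and TIS11, 10 of the 5788 nuclear genes that held a probe. The probes inside each gene and within 5 kb of it were taken, which gave 51 probes inside the genes and 381 probes in all, of 41480 on the array. The cells were the mec1 strain WFA73, which lacks normal function of the checkpoint kinase that guards stalled replication forks. They were held in G1 with alpha factor, released for 1 h into 200 mM hydroxyurea, a drug that starves forks of deoxynucleotides, and filtered. Recovery in fresh medium lasted 1 h, without BPS in 1 culture and with it, at 0.8 micromolar, in the other. BPS is an iron chelator. Broken ends were labelled in agarose (the Break-chip assay), with Cy3 for the recovery DNA and Cy5 for G1 DNA of the same strain, and hybridised to 1 tiling array per recovery. The design asked whether an iron chelator, present during recovery, altered the pattern of breaks.

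Yeast takes up iron through several routes that are switched on when iron is scarce, mainly by the transcription factor Aft1. Fet3, a multicopper oxidase, and Ftr1, a permease, form the high-affinity iron transporter of the cell surface, and Ccc2 delivers the copper that Fet3 needs. Fit1, Fit2 and Fit3 are mannoproteins of the cell wall that retain iron bound to siderophores. Fet5 and Fth1, relatives of Fet3 and Ftr1, and Smf3, a transporter of divalent metals, release iron from the vacuole, the iron store of the cell. Tis11, also called Cth2, binds messenger RNAs of iron-using proteins and brings about their decay. The 10 genes thus hold transporters, cell wall proteins and an RNA-binding protein, and by these roles none encodes an iron store itself. Break signal at a gene says nothing about its expression, which was not measured.

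A level below is the log2 of the deposited ratio, with the median of each array set to 0. The ratio was read as recovery over G1, the reading that the column names and the design give. No source used here states which channel is the numerator, and every sign would turn if it ran the other way. A difference is the level with BPS minus the level without BPS. The standard error (SE) is over the probes of a gene and covers scatter within an array only. With 1 array per condition no difference has a replicate check, so no test was made and no p-value is given. A difference beyond 0.5 log2 units in either direction, a ratio of 1.41, was used as the size worth naming. More copies of replicated DNA and more broken ends cannot be told apart on this scale, nor can a change of the recovery DNA and one of the G1 DNA. The median ratios of the arrays were 1.21 without and 1.23 with BPS, and neighbouring probes scattered with an SD of 0.35 and 0.42 log2 units.

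As a group the 10 genes showed no common shift with BPS. TIS11 and FTH1 were higher with BPS by more than 0.5 log2 units inside the gene, 2 of 10 beside 10.6% of all genes. None was lower by as much, beside 9.17% of all genes. Any increase at all was seen in 6 of the 10, beside 47.0% of all genes, and the median difference was 0.16 beside −0.03 over all genes. Over the genes with their 5 kb flanks, 1 of 10 was higher by more than 0.5, beside 6.67% of all such windows, and 0 of 10 were lower, beside 2.32%. The median difference of these windows was −0.02 beside −0.05 for the windows of all genes with a probe. Among the 381 single probes, 17.3% were higher and 16.5% lower by more than 0.5, beside 16.3% and 17.0% of all probes.

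**Figure D1:**
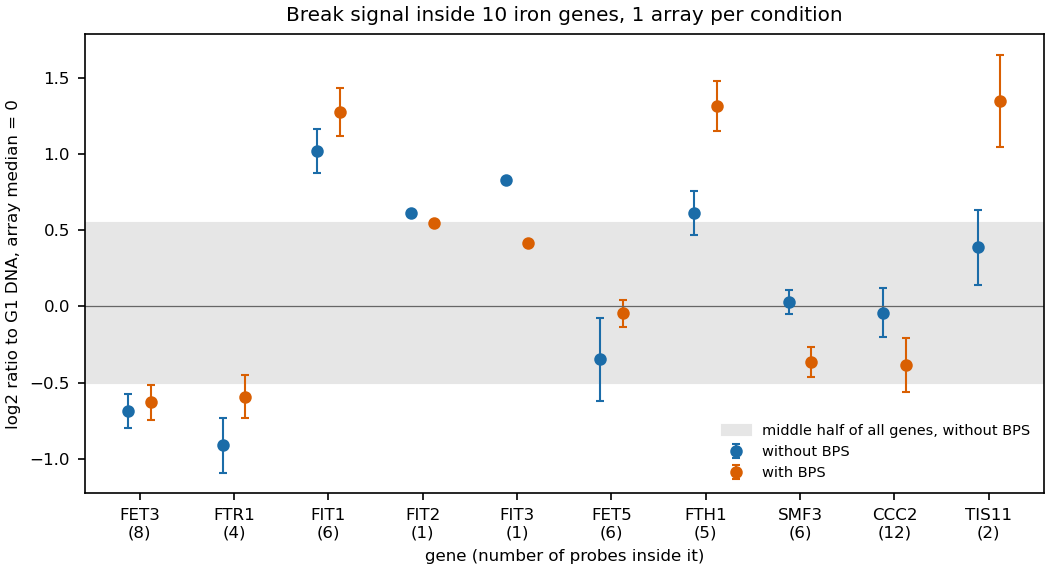
Level inside each gene (vertical axis, log2 ratio to G1 DNA with the array median at 0) without BPS (blue) and with BPS (orange), with the number of probes under each name. Bars are SE over probes and are missing for FIT2 and FIT3, which have 1 probe each, and the grey band spans the 25th to 75th percentile of all genes without BPS (−0.50 to 0.55). FIT1, FIT2 and FIT3 lie above 0 on both arrays, FET3 and FTR1 below 0 on both, and FTH1 and TIS11 move up to 1.32 and 1.35 with BPS.

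The levels of the 10 genes covered a wide range on each array. Without BPS the order from high to low was FIT1, FIT3, FIT2, FTH1, TIS11, SMF3, CCC2, FET5, FET3 and FTR1, from 1.02 to −0.91. With BPS it was TIS11, FTH1, FIT1, FIT2, FIT3, FET5, SMF3, CCC2, FTR1 and FET3, from 1.35 to −0.63. Of the 9 steps between neighbours in the order without BPS, 3 exceeded the combined SE over probes, 3 did not, and 3 involved FIT2 or FIT3, whose single probe gives no SE. With BPS 1 step exceeded it, that from FET5 to SMF3, and 5 did not. The SD over the 10 genes was 0.65 without and 0.81 with BPS, and over all genes it was 0.66 and 0.78. On both arrays 5 of the 10 genes lay above the array median, beside 42.7% of all genes, and 4 lay below it, beside 42.0%.

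The pair of the high-affinity transporter, FET3 and FTR1, lay below the array median on both arrays. FET3 (YMR058W, chromosome XIII, probes from 389.0 to 390.7 kb) had −0.69 ± 0.11 without and −0.63 ± 0.12 with BPS (SE, 8 probes), ratios to G1 DNA of 0.752 and 0.793. Both arrays were low and their probes overlapped, from −1.35 to −0.33 and from −1.15 to −0.02. The difference was 0.06 ± 0.15, with 4 probes higher and 4 lower with BPS. Low levels reached beyond the end of the gene. The 5 kb downstream had −0.63 and −0.52, and probes 5 to 20 kb downstream were lower still, at −0.999 and −1.08. The 5 kb upstream was closer to the array median, at −0.18 and −0.05, and probes 5 to 20 kb upstream lay above it, at 0.10 and 0.41. All 7 neighbouring genes in the window were higher with BPS, beside 47.0% of all genes, and 0 by more than 0.5. The smallest difference was 0.06 ± 0.09 at AAC1, which encodes an ADP/ATP carrier of mitochondria. The largest was 0.49 at SEN15, a gene of the tRNA splicing endonuclease with 1 probe. Genes of the same window, here and below, are not separate observations.

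FTR1 (YER145C, chromosome V, 460.6 to 461.4 kb) had the lowest level of the 10 without BPS, −0.91 ± 0.18, and −0.59 ± 0.14 with BPS (SE, 4 probes), ratios of 0.644 and 0.813. All 4 probes were higher with BPS, by 0.14 to 0.45, although the probe ranges of the arrays overlapped. The difference of 0.32 ± 0.07 stood at the 80.1st percentile of all genes. It turned negative when gene positions were moved by 1 kb, to −0.06 toward lower and −0.19 toward higher coordinates, and positions on chromosome V could not be checked. It also changed sign within the window. Upstream it was −0.45 ± 0.16 over 16 probes, 12 of them lower, and downstream it was 0.10 ± 0.14 over 19 probes. With BPS the gene stood above both flanks, which had −1.38 upstream and −0.76 downstream. Over the whole window the difference was −0.10 ± 0.10, from −0.89 to −0.995, with 19 probes higher and 20 lower. The neighbours with the largest and the smallest difference stood on opposite sides of the gene. They were UBP5, a ubiquitin protease gene, at 0.27 ± 0.23, and SPT15, the gene of the TATA-binding protein, at −0.75 ± 0.18 over 2 probes.

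**Figure D2:**
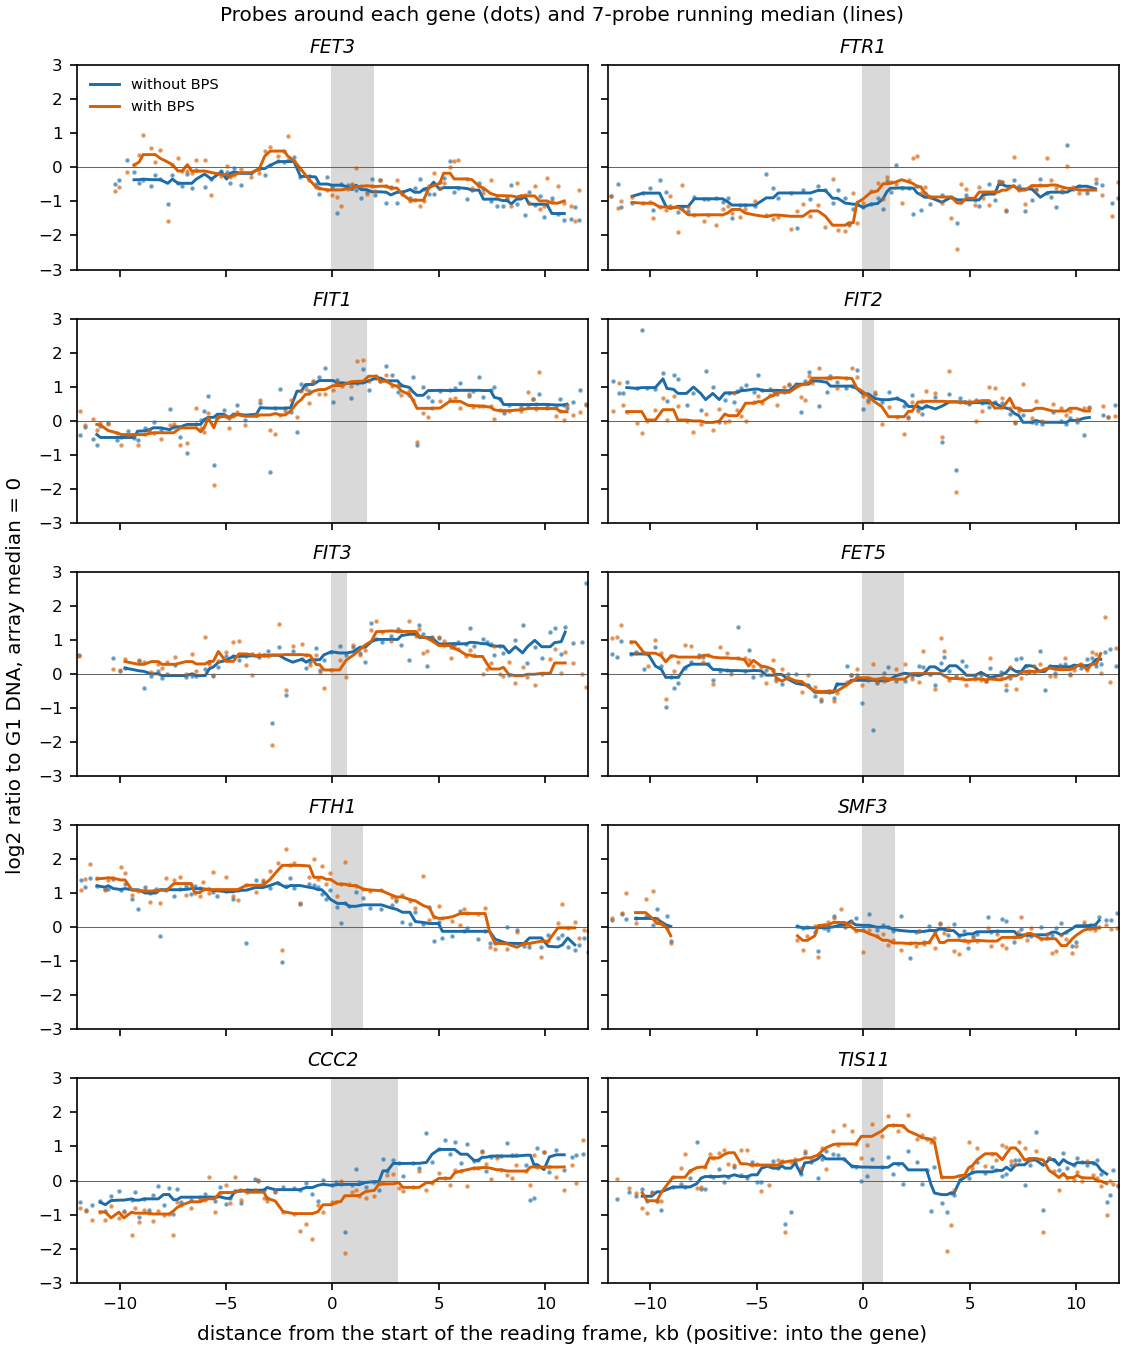
Level (vertical axes, log2 ratio to G1 DNA with the array median at 0) of each probe (dots) within 12 kb of the start of each reading frame (horizontal axes, kb, positive toward the end of the gene), with a running median over 7 probes (lines) without BPS (blue) and with BPS (orange). Grey marks the gene, the line is broken where probes are missing beside SMF3, and 1 probe with BPS in the FET3 panel, at −5.92, lies off the axis. The lines part over FTH1, CCC2 and TIS11 and run close together over FET3, FIT1 and FET5.

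The genes of the cell wall mannoproteins lay above the array median on both arrays. FIT1 (YDR534C, chromosome IV, 1503.5 to 1504.9 kb) had the highest level without BPS, 1.02 ± 0.15, and 1.28 ± 0.16 with BPS (SE, 6 probes), ratios of 2.46 and 2.97. These stood at the 92.9th and 93.3rd percentiles of all genes. Both arrays were high at every probe, from 0.55 to 1.51 and from 0.91 to 1.78, and the ranges overlapped. The difference was 0.26 ± 0.11, with 4 probes higher and 2 lower, but it was −0.12 ± 0.12 upstream and −0.22 ± 0.08 downstream. Inside the gene it became −0.01 with medians over probes, and −0.03 and −0.18 with positions moved 0.5 and 1 kb toward higher coordinates. The highest 5-probe mean in the window lay at 1502.8 kb without BPS (1.29) and at 1503.2 kb with BPS (1.43), just beyond the end of the gene. Farther out, the sides differed in level. Probes 5 to 20 kb upstream had −0.43 without and −0.23 with BPS, and those 5 to 20 kb downstream had 0.81 and 0.71. All 4 neighbours were lower with BPS, beside 53.0% of all genes. The differences ran from −0.06 at STL1, a glycerol transporter gene, to −0.37 at CAB1, a pantothenate kinase gene.

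FIT2 and FIT3 are neighbours on chromosome XV and share 35 of the 42 probes in their joined windows, so they are not separate observations. FIT2 (YOR382W) had 1 probe, at 1059.8 kb, with 0.62 without and 0.55 with BPS, ratios of 1.86 and 1.79. FIT3 (YOR383C) had 1 probe, at 1060.7 kb, with 0.83 and 0.42, ratios of 2.16 and 1.63. Both genes lay above the array median on both arrays. FIT2 stood at the 78.1st percentile of all genes without and the 73.4th with BPS. FIT3 stood at the 86.7th and the 68.2nd. With BPS both were thus between the 25th and 75th percentiles of all genes (−0.56 to 0.58). The differences of −0.07 and −0.42 rest on these single probes, and the scatter of the difference between neighbouring probes had an SD of 0.41 over the genome. The windows rest on more probes, nearly all outside the genes. That of FIT2 (39 probes) gave 0.69 ± 0.09 without and 0.64 ± 0.11 with BPS, with a difference of −0.04 ± 0.07. Its sides differed in level, at 0.97 and 0.996 upstream and 0.38 and 0.25 downstream. The window of FIT3 gave 0.64 on both arrays over 38 probes and a difference of 0.01 ± 0.07.

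These genes sit between FRE3 and FRE5, which encode ferric reductases, so that the stretch is a cluster of iron genes. From FRE3 to FRE5 (1055.8 to 1063.6 kb) the mean was 0.73 ± 0.08 without and 0.77 ± 0.10 with BPS over 29 probes, of which 14 were higher and 15 lower. The level was higher at FRE3 (0.93 and 1.05 over 8 probes) than at FRE5 (0.34 and 0.52 over 8 probes). The largest excursion of the difference in a 5-probe mean was −0.49 at 1061.1 kb, beside the start of FIT3. The surroundings 5 to 20 kb from FIT2 moved in opposite directions. Upstream 50 of 56 probes were lower with BPS, with a mean difference of −0.57, and downstream 25 of 32 were higher, with a mean difference of 0.20.

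FIT1, FIT2 and FIT3 lie 20.9 to 21.8 kb from the outermost probe of their chromosome arms. All 3 were above the array median on both arrays, beside 47.9% of the 338 genes within 30 kb of an outermost probe. The 338 genes had a median difference of 0.14, with 73 higher and 13 lower by more than 0.5. None of the 3 genes passed that size in either direction.

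The genes of the vacuolar transporters went different ways. FTH1 (YBR207W, chromosome II, 635.4 to 636.2 kb) had 0.61 ± 0.14 without and 1.32 ± 0.16 with BPS (SE, 5 probes), ratios of 1.85 and 3.05. All 5 probes were higher with BPS, by 0.20 to 1.21, although the ranges of the arrays, 0.13 to 1.02 and 0.91 to 1.91, overlapped slightly. The difference of 0.70 ± 0.21, or 1.63-fold, stood at the 94.3rd percentile of all genes. It was 0.58 without the probe that differed most, at 635.8 kb, and 0.39 when gene positions were moved by 1 kb toward higher coordinates. Upstream the difference was 0.43 ± 0.11 and downstream 0.42 ± 0.10, and 37 of the 41 probes in the window were higher with BPS. The window as a whole differed by 0.46 ± 0.07, just under the chosen size.

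FTH1 stood on the flank of a hill. The level fell along the window in the direction of transcription, from 0.94 upstream to 0.25 downstream without BPS and from 1.37 to 0.67 with BPS. A 9-probe running mean of the difference stayed above 0.3 from 630.7 to 641.5 kb, over 39 probes with a mean of 0.47. Probes 5 to 20 kb away differed by −0.12 upstream and by 0.15 downstream. All 4 neighbours were higher with BPS, beside 47.0% of all genes. They ran from 0.25 ± 0.21 at COS111 to 0.63 ± 0.13 at LDH1, a gene of a lipid droplet hydrolase.

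FET5 (YFL041W, chromosome VI, 49.3 to 50.7 kb), the oxidase partner of FTH1, had −0.35 ± 0.27 without and −0.04 ± 0.09 with BPS (SE, 6 probes), ratios of 0.953 and 1.19. The difference of 0.30 ± 0.35 rests on the probe at 49.6 kb, which read −1.65 without and 0.30 with BPS. Without that probe the difference was −0.03. The arrays overlapped at the other probes, and the flanks differed by 0.03 ± 0.07 and 0.004 ± 0.08. FET5 lay in a hollow shared by both arrays: the window had −0.14 ± 0.06 and −0.08 ± 0.06, while probes 5 to 20 kb away had 0.62 and 0.86 upstream and 0.72 and 0.68 downstream. The neighbours ranged from 0.23 at OTU1, a deubiquitinase gene, to −0.24 at ACT1, the actin gene.

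At SMF3 (YLR034C, chromosome XII, probes from 210.5 to 211.9 kb) the level was 0.03 ± 0.08 without and −0.36 ± 0.10 with BPS (SE, 6 probes), ratios of 1.24 and 0.952. All 6 probes were lower with BPS, by 0.20 to 0.64, and the ranges of the arrays overlapped. The difference of −0.39 ± 0.07, at the 15.2nd percentile of all genes, was short of the chosen size and held between −0.43 and −0.34 when any single probe was left out. It continued downstream (−0.23 ± 0.08, 15 of 19 probes lower), and upstream it was −0.08 ± 0.09. Probes 5 to 20 kb away differed by −0.19 upstream and −0.27 downstream, beside −0.21 in the window. The upstream flank ended at 215.0 kb, at a stretch of 5.95 kb with no probe that holds the long reading frame YLR035C-A, so it had 12 probes. RAD5, a gene of DNA damage tolerance, had the smallest difference of the neighbours, −0.28 ± 0.09, and MLH2, a mismatch repair gene, the largest, 0.09 ± 0.07.

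**Figure D3:**
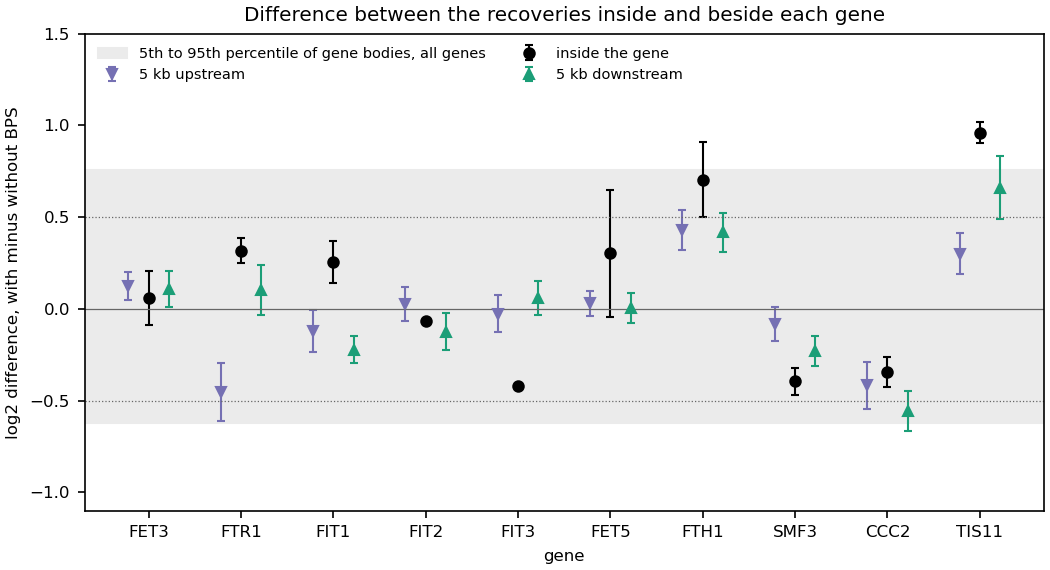
Difference in level (vertical axis, log2, with minus without BPS) in the 5 kb upstream (purple), inside (black) and in the 5 kb downstream (green) of each gene. Bars are SE over probes, and dotted lines mark 0.5 either way. The grey band spans the 5th to 95th percentile of differences inside all genes (−0.62 to 0.76). It was not drawn for flanks, and for genes with their 5 kb flanks these percentiles were −0.43 and 0.60. All 3 parts lie above 0 at FET3, FET5, FTH1 and TIS11 and below 0 at SMF3 and CCC2. Those of FET3 (0.06 to 0.13) and the flanks of FET5 (0.03 and 0.004) lie close to 0. At FTR1 the upstream part (−0.45) and the gene (0.32) lie on opposite sides.

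CCC2, whose product pumps copper into the Golgi, stood in the stretch with the most negative window difference of the 10. Inside the gene (YDR270W, chromosome IV, 1005.9 to 1008.5 kb) the level was −0.04 ± 0.16 without and −0.38 ± 0.18 with BPS (SE, 12 probes), ratios of 1.18 and 0.939. Of the 12 probes 10 were lower with BPS, and the ranges of the arrays overlapped. The difference was −0.34 ± 0.08 inside the gene, −0.42 ± 0.13 upstream and −0.55 ± 0.11 downstream. Over the window it was −0.45 ± 0.07, at the 3.83rd percentile of all windows, with 41 of 48 probes lower. By more than 0.5, 20 of the 48 were lower and 0 higher.

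The loss at CCC2 had 2 deepest points on either side of the gene. At 1004.1 kb, upstream, 5 probes had −0.22 without and −1.28 with BPS. There MSW1, a gene of a mitochondrial tryptophanyl-tRNA synthetase, differed by −0.97 ± 0.29 over 4 probes. Beyond the end of the gene, 5 probes around 1010.7 kb formed the peak of the window without BPS (0.97), and these had −0.03 with BPS. DON1, a gene of spore membrane formation that lies there, differed by −0.83 ± 0.12. The neighbour with the largest difference, HEL2, a ubiquitin ligase gene, had 0.06 ± 0.12. A 9-probe running mean of the difference stayed below −0.3 from 1002.6 to 1013.6 kb, over 41 probes with a mean of −0.52. Of the 8 neighbours 7 were lower with BPS, beside 53.0% of all genes. The sides differed farther out. Of the probes 5 to 20 kb upstream 32 of 34 were lower with BPS, with a mean difference of −0.39, and 40 of 51 downstream were higher, with a mean difference of 0.84.

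TIS11 had the largest difference of the 10 genes. Inside it (YLR136C, chromosome XII) the 2 probes, at 416.3 and 416.5 kb, had 0.64 and 0.14 without and 1.65 and 1.05 with BPS. Both were higher with BPS, and the arrays did not overlap at these probes. The means were 0.39 ± 0.25 and 1.35 ± 0.30, ratios of 1.59 and 3.12. The difference of 0.96 ± 0.06, or 1.95-fold, stood at the 97.3rd percentile of all genes. Its small SE rests on 2 probes that read alike. Over the genome the scatter of the difference between neighbouring probes had an SD of 0.41. The window, with 44 probes, had 0.20 without and 0.70 with BPS. It differed by 0.50 ± 0.10, with 36 probes higher and 8 lower, and was the single window beyond 0.5. It fell short of that size after quantile normalization (0.45) and with 10 kb of flank either side (0.33).

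The gain around TIS11 was centred on its 3′ side. It was 0.66 ± 0.17 in the 5 kb downstream and 0.30 ± 0.11 in the 5 kb upstream, and the highest 5-probe mean of the difference, 1.27, lay at 415.0 kb, 1.62 kb from the start of the reading frame and past its end. The neighbour there, SLX4, encodes a scaffold of structure-specific endonucleases and differed by 1.23 ± 0.13, from 0.24 to 1.47 over 10 probes. On the other side RKM5, a ribosomal lysine methyltransferase gene, differed by 0.74 ± 0.13 and NHA1, a sodium/proton antiporter gene, by 0.19 ± 0.14, the smallest of the window. A 9-probe running mean stayed above 0.3 from 412.6 to 418.6 kb, over 24 probes with a mean of 0.75. At the lower edge of this block both arrays dropped together, to 5-probe means of −0.49 without BPS at 413.0 kb and −0.68 with BPS at 412.6 kb. Probes 5 to 20 kb away differed by 0.33 upstream and −0.03 downstream.

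Other iron genes were counted by role for comparison. Of 38 listed genes 37 had a probe, and 4 of the 37 were higher and 3 lower by more than 0.5 inside the gene, beside 10.6% and 9.17% of all genes. Their median difference was 0.001. Among 8 regulators 7 were lower with BPS by any amount, beside 53.0% of all genes, and the median was −0.15 beside −0.03. The exception was GRX3, a glutaredoxin gene, at 0.91 ± 0.25, and the lowest was YAP5, the gene of the iron-sensing activator of vacuolar storage, at −0.27 ± 0.16. Among 4 siderophore transporter genes 2 were higher by more than 0.5, beside 10.6% of all genes. All 4 lie within 30 kb of an outermost probe, where 73 of 338 genes were higher by as much. ARN2 had the highest difference of all listed genes, 1.66 ± 0.08, and SIT1 the lowest of its list, −0.23 ± 0.11. Among 6 reductase genes the values ran from −0.68 ± 0.10 at FRE1 to 0.80 ± 0.07 at FRE2. FRE2 also lies within 30 kb of an outermost probe, and FRE1 does not.

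The other lists held few genes beyond 0.5. Of 6 other metal transporter genes with a probe 0 passed it, from −0.43 ± 0.14 at SMF2, a manganese transporter gene, to 0.47 ± 0.10 at CTR1, the copper transporter gene. CCC1 encodes the importer that carries iron into the vacuole for storage. Its 3 probes averaged 0.34 on the array without the chelator and −0.02 on the other, which differ by −0.36 ± 0.05. Of 8 genes of mitochondrial iron, iron-sulfur clusters and haem 0 passed it, from −0.06 at MRS3, a mitochondrial carrier gene, to 0.31 at ISU1, a cluster scaffold gene with 1 probe. Of 5 other genes of the Aft1 regulon 2 were lower by more than 0.5, beside 9.17% of all genes. They were PCL5, a cyclin gene, at −0.91 ± 0.07 over 2 probes and AKR1, a palmitoyltransferase gene, at −0.52 ± 0.10. By systematic name AKR1 (YDR264C) lies near CCC2 (YDR270W) on chromosome IV, so these may not be separate observations. The highest of that list was LSO1 at 0.28 over 1 probe.

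**Figure D4:**
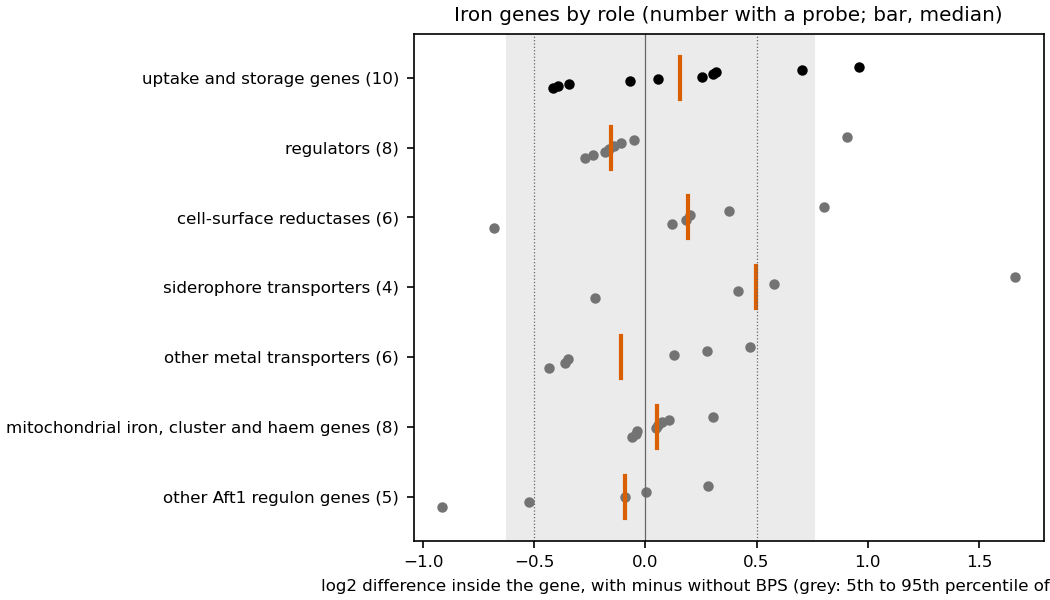
Difference inside each gene (horizontal axis, log2, with minus without BPS) for the 10 genes (black) and 37 other iron genes by role (grey), with the number of genes with a probe after each name and an orange bar at the median. The grey band spans the 5th to 95th percentile of all genes (−0.62 to 0.76), and ARN2, at 1.66, lies farthest to the right.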

How the data were processed

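The authors deposited a linear ratio for each of 41480 probes on each array, normalized, as the name of the table says. How it was normalized and the genome build are not given in the sources used here. Per the submitters' processing notes, the scanner software was Agilent Feature Extraction, version 9.5.1. Groups came from the sample labels, 1 array each. The number of arrays limits the precision. Signal over background was not assessed.

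Each array's log2 ratios were shifted to a median of 0. No probe was left out. Means over probes inside a gene, and inside it or within 5 kb, were computed for every gene in the RefSeq table of assembly R64 (6431 nuclear genes), whose coordinates are not reported. Strand was read from the systematic name. Positions were checked on 20 reading frames over 3 kb with suffixed names, mostly transposon frames, on 5 of the 7 chromosomes concerned. They held 0 probes in place and 21 or 20 when moved by 0.5 kb either way. Chromosomes V and XIII, with FTR1 and FET3, had no such frame, and chromosome VI, with FET5, had 1. Moves smaller than 0.5 kb were not tried. The calculation was tested on simulated data.

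The members and lists were chosen with earlier results of these data known. All 10 members were named, with the neighbours of largest and smallest difference in each window and the highest and lowest gene of each other list. Further neighbours (RKM5, DON1, FRE3, FRE5), CCC1, AKR1, the 9-probe blocks, the split by side of the probes 5 to 20 kb away and the single-probe checks were chosen after the values were seen. Python 3.11.15, pandas 2.3.3, numpy 2.4.6 and matplotlib 3.10.9 were used.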

Additional observations from a re-analysis of the deposited data

How the results depend on the processing

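The counts and medians over the 10 genes are small and moved with most choices, and the cause was not tested beyond what each choice itself changes. Beside 2 genes higher and 0 lower inside the gene by more than 0.5, and 1 window higher and 0 lower, the numbers were as follows. Dividing each array by its robust SD (with 0.5 robust SDs as the size) gave 1 gene lower (FIT3) and 1 window lower (CCC2). Of all genes 12.5% were then lower, and of all windows 4.83%. After quantile normalization, with medians over probes and with windows of 10 kb, 0 windows were higher, because TIS11, at 0.50 in the 5 kb window, stood at 0.45, 0.47 and 0.33. Of all windows 6.42%, 7.81% and 4.965% were higher under these choices. Windows of 2 kb gave 2 higher (TIS11 at 0.86 and FTH1 at 0.50) and 1 lower (CCC2 at −0.58). Of all such windows 7.59% were higher and 4.84% lower. A size of 0.3 gave 4 genes higher and 3 lower, beside 21.2% and 23.1% of all genes, and 2 windows higher and 1 lower, beside 14.6% and 15.5% of all windows. A size of 1 gave 0 of each, beside 2.40% and 0.657% of genes and 0.811% and 0.172% of windows. Gene positions moved 0.5 kb toward higher coordinates gave 1 gene lower (FIT3, −0.68), beside 10.3% of all genes. Moved by 1 kb they gave 1 gene higher, beside 9.98% of all genes, FTH1 being at 0.39. Leaving out genes with fewer than 3 probes, an alternative added after the data were seen, removed TIS11, FIT2 and FIT3 and gave 1 gene and 0 windows higher. Of all genes with 3 or more probes 9.61% were higher, and of their windows 5.14%.

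The median difference inside the genes, 0.16, became −0.0086 with medians over probes, 0.0017 and −0.19 with positions moved by 0.5 and 1 kb upward, 0.30 without the 3 FIT genes near chromosome ends and 0.26 without genes under 3 probes. That of the windows, −0.02, became −0.091 with medians over probes, 0.058 without the FIT genes and −0.10 without genes under 3 probes. Median levels, 0.21 without and 0.19 with BPS, became 0.49 and 0.48 without centring, and −0.041 and −0.36 without the FIT genes or without genes under 3 probes. With positions moved 0.5 kb upward the level with BPS became −0.10. Centring on each chromosome, also added later, gave the same counts, but the window beyond 0.5 was then that of FTH1 (0.52) and no longer that of TIS11 (0.47). The differences at TIS11, FTH1, SMF3 and CCC2 kept their sign under every alternative run (0.75 to 1.32, 0.39 to 0.76, −0.45 to −0.29 and −0.49 to −0.26 inside the gene). That inside FET5 also kept its sign under these alternatives (0.03 to 0.38), but it was −0.03 without its probe at 49.6 kb. Those inside FET3 (−0.12 to 0.16), FTR1 (−0.19 to 0.46), FIT1 (−0.18 to 0.32), FIT2 (−0.42 to 0.29) and FIT3 (−0.68 to 0.15) turned sign under at least 1 alternative. No paired analysis was possible because each condition has 1 array.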

Other observations

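Several isolated probes in the windows read far below their neighbours on both arrays. In the 381 probes, 9 without and 9 with BPS lay at least 1 log2 unit below the mean of the 4 nearest probes, and 5 were the same probes on both arrays. These 5 were at 1006.3 kb inside CCC2 (−1.52 without and −2.14 with BPS), at 632.8 kb upstream of FTH1 (−1.03 and −0.67), at 1500.9 kb beyond FIT1 (−0.72 and −0.62), at 420.3 kb near TIS11 (−1.27 and −1.52) and at 1063.9 kb in the windows of FIT2 and FIT3 (−1.45 and −2.10). Over all 41480 probes 531 were shared dips of this kind, 1.28%, beside 1.31% in the windows.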
